A study of Mus musculus with 12 samples.

Results

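The results below concern the interaction of Fh1 silencing with TGF-β1 in mTECs, a mouse renal tubular epithelial cell line: the difference between the effect of silencing in the presence of the cytokine and its effect in basal cells. Fh1 encodes fumarate hydratase, and the series asks how this enzyme and Akap12 bear on fibrosis of the kidney. RNA was sequenced from control cells (NC), Fh1-silenced cells (KD), control cells given TGF-β1 (NC+TGF-β1) and silenced cells given TGF-β1 (KD+TGF-β1), with 3 libraries in each of the 4 groups. The silencing reagent, the dose and the length of the TGF-β1 treatment are not given in the sources used here, and nothing in the labels tells whether replicates came from separate cultures. The p-values therefore rest on the spread among these libraries, which may be technical. The interaction was computed for every gene as (KD+TGF-β1 minus NC+TGF-β1) minus (KD minus NC) on the log2 scale. Of 15802 genes listed in both deposited tables, 11707 had enough reads to be tested, and 104 of those were called (edgeR's quasi-likelihood test, Benjamini-Hochberg adjusted p under 0.05).

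Fumarate hydratase is the tricarboxylic acid cycle enzyme that hydrates fumarate to malate, and loss of the enzyme lets fumarate accumulate. TGF-β1 is a cytokine that induces matrix genes and a mesenchymal programme in tubular epithelium. ATF4 is a transcription factor whose translation increases when the initiation factor eIF2α is phosphorylated under amino acid shortage, endoplasmic reticulum stress or mitochondrial stress. Its targets include genes for amino acid uptake, for serine, folate and asparagine synthesis and for the charging of tRNAs, and many of them carry a CCAAT-enhancer binding protein and ATF response element near the start of transcription. Several of the genes named here belong to this set.

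The libraries held 17651213 to 18462872 estimated counts. Basal and TGF-β1 libraries lay at opposite ends of the first principal component (78% of the variance), and NC replicate 1 stood apart on the second (3.89% of the variance), at 20.05 against -8.08 to 7.18 in the other 11. Each setting has a deposited table of its own, and the sample titles name no experiment or batch. A factor that shifts all libraries of a table alike cancels in the interaction. If the settings were separate experiments, a difference between them in the response to silencing would not cancel. It could not be told apart from an effect of the cytokine on that response. The general tubular markers Pax2, Pax8, Cdh16, Krt8, Krt18 and Epcam were present in every library, with a summed level of 3737 to 6099 CPM (counts scaled to library size) over the 21 markers of that list, while the list's markers of nephron segments or their precursors were mixed: Slc34a1, Umod, Aqp2 and Lhx1 were at 0 to 2 counts, Cubn at 76 to 121, Aqp1 at 201 to 452 and Cdh6 at 969 to 5210. Summed levels were 1.002 to 12.4 CPM for fibroblast, 0.998 to 4.62 CPM for endothelial and 81.5 to 99.3 CPM for immune markers, and the last were nearly all Csf1r, with Ptprc, Adgre1, Cd3e and C1qa at 0 to 9 counts. KD+TGF-β1 replicate 1 held 328 counts of 9 pluripotency genes that were at 0 in the other 11 libraries, and 50 counts of Vim against 1 to 13 elsewhere. In bulk RNA, fewer cells of a type and less RNA per cell cannot be told apart.

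Fh1 itself was among the called genes. Its level was 51.4, 53.9 and 53.5 CPM in the 3 NC libraries, 28.6, 31.3 and 29.7 in KD, 49.7, 49.7 and 49.4 in NC+TGF-β1, and 15.0, 13.7 and 13.8 in KD+TGF-β1. Control levels were close in both settings, whereas the silenced cells with TGF-β1 all lay below the silenced basal cells. Silencing left 56.4% of the control level in basal cells (54.7% to 58.2% at 1 SE) and 28.6% with TGF-β1 (27.6% to 29.6%). The interaction was -0.98 ± 0.07 (log2 value ± SE, n = 3 per group; edgeR adjusted p = 8.18e-06). Silencing was thus deeper in the TGF-β1 libraries, and for every gene below the presence of the cytokine and the deeper silencing cannot be told apart. Akap12, which encodes a scaffold for protein kinase A, was higher with silencing in both settings, at 533 to 563 CPM in NC against 645 to 670 in KD and at 743 to 761 in NC+TGF-β1 against 851 to 895 in KD+TGF-β1. The change was 0.27 ± 0.03 in basal cells and 0.22 ± 0.03 with TGF-β1, and the interaction, -0.05 ± 0.04, did not pass the test (edgeR adjusted p = 0.728).

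Of the 11707 genes tested, 0.888% were called in the interaction, 55 of them with a higher (0.47%) and 49 with a lower (0.419%) silencing effect in the presence of TGF-β1. Silencing itself changed 429 genes in basal cells (3.66%), 169 upward (1.44%) and 260 downward (2.22%), and 1340 genes with TGF-β1 (11.4%), 635 upward (5.42%) and 705 downward (6.02%). Among the 104 genes, a silencing effect appeared with the cytokine in 64 (36 higher, 28 lower), meaning that silencing passed the test with TGF-β1 only. An effect was lost in 16, which passed in basal cells only (10 had been higher, 6 lower). It turned in 10, which passed in both settings with opposite signs, grew in 10 and shrank in 4. The differences were small: the median absolute interaction was 0.308 on the log2 scale, or 1.238-fold, 18 genes reached 0.5 and 1 reached 1. NC and KD libraries did not overlap in at least 1 setting for all 104 genes. This follows largely from the calls, since each of the 104 also passed the test of silencing in at least 1 setting. Over all genes tested, 22.7% showed no overlap in basal cells and 32.2% showed none with TGF-β1. The share of all genes with no overlap in either 1 of the settings was not computed. The count depended on single libraries: it was 38 without KD replicate 2 or without KD+TGF-β1 replicate 3, 45 without KD replicate 3, 46 without KD replicate 1, 59 to 67 without KD+TGF-β1 replicate 1 or 2, NC+TGF-β1 replicate 1 or 3 or NC replicate 2, and 147 without NC replicate 3. Of the 104 genes, 32 were called in each of the 12 fits that left out 1 library, and none changed sign in any of them.

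**Figure D1:**
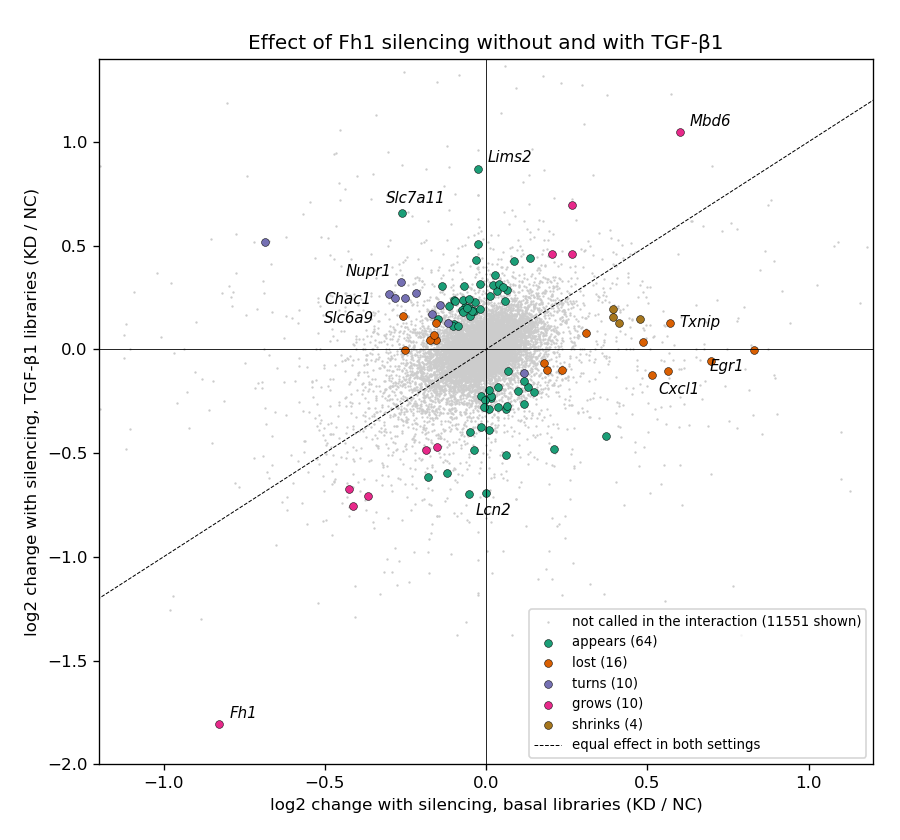
Effect of Fh1 silencing on each gene without TGF-β1 (horizontal axis, log2 of KD over NC) and with it (vertical axis, log2 of KD+TGF-β1 over NC+TGF-β1), from the fit over all 12 libraries. Coloured points are the 104 genes called in the interaction, by class. Fh1 lies far below the dashed line of equal effects, Egr1 lies on the horizontal line of no effect with TGF-β1, and Nupr1, Chac1 and Slc6a9 lie to the upper left, lower with silencing in basal cells and higher with the cytokine.

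The 10 genes that turned held the most stable calls. In 9 of them silencing lowered the level in basal cells and raised it with TGF-β1, and 6 of these 9 are members of the 4 ATF4-linked lists described below, which hold 74 of the 11707 genes tested: Nupr1, Chac1, Trib3, Slc6a9, Slc7a5 and Asns. The others were Xpot, Hmga2 and 1700049E17Rik1, and the gene that turned the opposite way was Adamts1. All of them but 1700049E17Rik1 were called in each of the 12 fits that left out 1 library.

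Nupr1 encodes a small stress-inducible chromatin protein. It stood at 155, 168 and 168 CPM in NC, at 139, 134 and 136 in KD, at 29.9, 27.4 and 30.7 in NC+TGF-β1 and at 36.7, 35.2 and 38.5 in KD+TGF-β1. All KD libraries lay below NC, and all KD+TGF-β1 libraries lay above NC+TGF-β1, at a level several times lower. The change with silencing was -0.26 ± 0.04 in basal cells and 0.33 ± 0.06 with TGF-β1, an interaction of 0.59 ± 0.07 (edgeR adjusted p = 0.0013). Chac1, a glutathione-degrading enzyme, was at 79.8, 82.1 and 86.2 CPM in NC, 67.5, 65.1 and 68.8 in KD, 25.4, 26.9 and 26.1 in NC+TGF-β1 and 30.8, 31.9 and 31.6 in KD+TGF-β1. Its interaction was 0.57 ± 0.06 (adjusted p = 0.000844), again with no overlap in either setting. Trib3, a pseudokinase that restrains ATF4 and AKT signalling, went from 129 to 133 CPM in NC to 110 to 114 in KD, and from 46.9 to 53.7 in NC+TGF-β1 to 55.0 to 64.2 in KD+TGF-β1. Its groups were parted in both settings, narrowly with TGF-β1, and the interaction was 0.49 ± 0.08 (adjusted p = 0.00921).

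The elements that ATF4 binds were looked for in the promoters of the called genes of 4 lists described below (ATF4 regulators and stress effectors; serine, folate and asparagine synthesis; tRNA synthetases; amino acid transporters). Promoters were taken from RefSeq, build GRCm38.p6, as 250 bases before to 50 bases after the start of transcription, and searched on both strands for TGATGNAAN, the core of the response element. Of 13 called members with a promoter in the table, 6 held a match (46.2%), and of all 58 tested members of the lists with a promoter 18 did (31.0%), against 2.72% of 9373 tested genes and 4.5% of all 27025 genes of the table. The AP-1 word TGANTCA was in 0 of the 13 and in 6.4% of the tested genes, and the E2F word TTTGGCGC was in 0 of the 13 and in 1.14% of the tested genes. Gars was the sixth gene with a match. The promoters of the 5 others, the 4 that turned and that of Slc7a11, the gene with the largest interaction value in the lists among those called, are shown to place the element. Capitals mark the match, and the Slc7a11 promoter holds 2. A match is a description of the letters and not evidence of binding. The lists were built around processes that ATF4 controls, so their shares beside those of all genes are no test of these data. For AP-1 and E2F, 13 promoters are too few to tell 0 from the shares of the tested genes.
Nupr1 (chr7:126625421-126625720, minus strand): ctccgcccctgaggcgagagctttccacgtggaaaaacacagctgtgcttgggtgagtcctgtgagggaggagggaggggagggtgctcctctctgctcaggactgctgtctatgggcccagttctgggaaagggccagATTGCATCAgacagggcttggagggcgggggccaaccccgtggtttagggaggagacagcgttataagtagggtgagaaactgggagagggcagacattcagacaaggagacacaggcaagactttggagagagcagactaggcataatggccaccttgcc
Chac1 (chr2:119350992-119351291, plus strand): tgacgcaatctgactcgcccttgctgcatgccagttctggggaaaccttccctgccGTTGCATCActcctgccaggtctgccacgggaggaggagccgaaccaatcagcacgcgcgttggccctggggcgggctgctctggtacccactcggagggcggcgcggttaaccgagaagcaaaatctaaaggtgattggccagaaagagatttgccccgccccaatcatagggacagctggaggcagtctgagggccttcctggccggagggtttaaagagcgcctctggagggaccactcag
Trib3 (chr2:152344011-152344310, minus strand): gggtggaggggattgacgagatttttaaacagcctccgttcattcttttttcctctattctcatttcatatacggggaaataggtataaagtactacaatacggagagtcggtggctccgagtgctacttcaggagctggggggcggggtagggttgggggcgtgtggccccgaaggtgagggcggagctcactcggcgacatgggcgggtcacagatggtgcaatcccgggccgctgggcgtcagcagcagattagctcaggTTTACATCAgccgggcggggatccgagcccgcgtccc
Asns (chr6:7693160-7693459, minus strand): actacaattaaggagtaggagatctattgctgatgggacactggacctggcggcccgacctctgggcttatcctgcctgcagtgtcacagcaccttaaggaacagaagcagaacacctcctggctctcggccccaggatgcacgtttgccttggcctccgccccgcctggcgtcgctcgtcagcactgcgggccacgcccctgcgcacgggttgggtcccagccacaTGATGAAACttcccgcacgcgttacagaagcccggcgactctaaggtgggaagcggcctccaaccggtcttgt
Slc7a11 (chr3:50443564-50443863, minus strand): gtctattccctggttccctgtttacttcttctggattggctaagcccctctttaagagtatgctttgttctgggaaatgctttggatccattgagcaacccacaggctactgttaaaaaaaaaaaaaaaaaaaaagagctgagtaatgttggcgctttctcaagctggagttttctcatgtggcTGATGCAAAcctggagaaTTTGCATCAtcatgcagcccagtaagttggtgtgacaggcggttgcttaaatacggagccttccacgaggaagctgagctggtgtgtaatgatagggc

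The amino acid genes that turned, and Xpot, gave the same order of groups. Slc6a9, a glycine transporter, was at 98.8, 105 and 113 CPM in NC, 84.4, 86.1 and 90.4 in KD, 38.8, 41.7 and 40.9 in NC+TGF-β1 and 46.0, 47.9 and 50.1 in KD+TGF-β1, with an interaction of 0.53 ± 0.08 (edgeR adjusted p = 0.00567). Slc7a5, the light chain of a leucine exchanger, was at 206 to 211 CPM in NC and 188 to 190.1 in KD. It was at 75.7 to 78.8 in NC+TGF-β1 and 85.8 to 92.6 in KD+TGF-β1 (interaction 0.36 ± 0.05, adjusted p = 0.00275). Asns, asparagine synthetase, had its element 23 bases before the start of transcription. It was at 227 to 245 CPM in NC and 205 to 215 in KD, and at 133 to 143 in NC+TGF-β1 and 149.8 to 159 in KD+TGF-β1 (interaction 0.34 ± 0.05, adjusted p = 0.00921). Xpot, which exports tRNAs from the nucleus, was at 374 to 389 CPM in NC and 345 to 356 in KD, and at 247 to 255 in NC+TGF-β1 and 270.4 to 277 in KD+TGF-β1 (interaction 0.25 ± 0.04, adjusted p = 0.00921). In all 4 genes the NC and KD libraries did not overlap in either setting. The class was less stable than the call: without 1 library, Slc7a5 and Xpot still turned in 7 of 12 fits, and Trib3 and Asns in 6 of 12, since 1 of the silencing effects no longer passed in the rest.

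**Figure D2:**
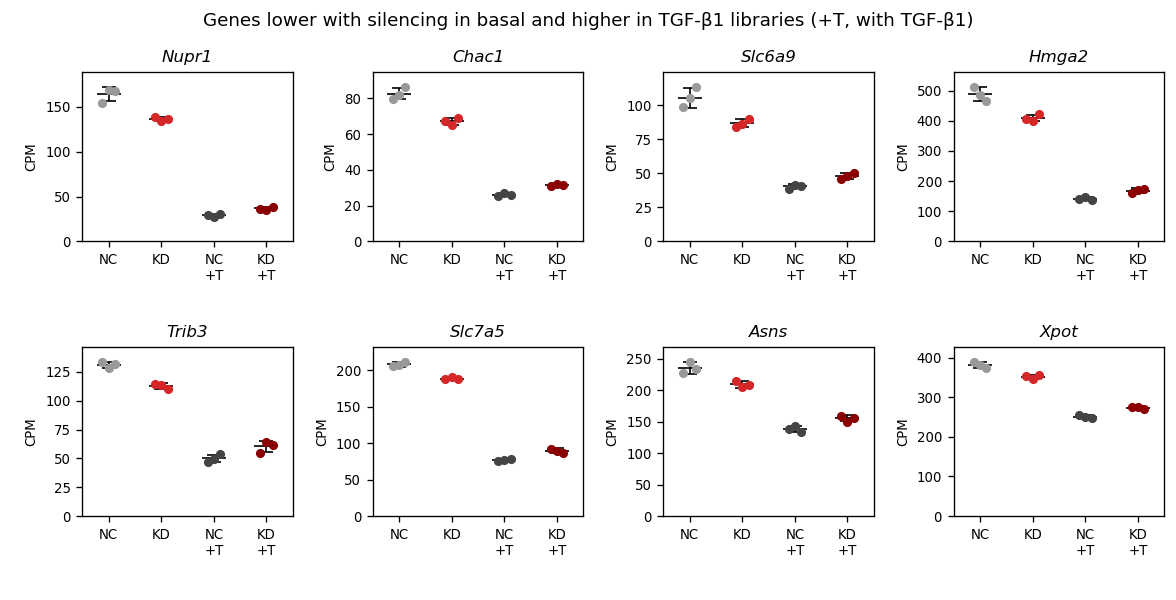
Level in CPM (vertical axes, from 0) of 8 of the 9 genes that were lower with silencing in basal cells and higher with TGF-β1 (all but 1700049E17Rik1, which has a near-identical copy), in NC, KD, NC+TGF-β1 (NC +T) and KD+TGF-β1 (KD +T). Points are single libraries, and bars give the mean and the SD of 3. In each panel KD lies below NC, KD +T lies above NC +T, and both TGF-β1 groups lie below both basal groups.

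Hmga2, an architectural chromatin protein known from epithelial to mesenchymal change, also turned. It was at 510, 486 and 464 CPM in NC, 407, 399 and 421 in KD, 142, 146 and 137 in NC+TGF-β1 and 160, 171 and 174 in KD+TGF-β1, an interaction of 0.50 ± 0.06 (edgeR adjusted p = 0.0013). Adamts1, a secreted metalloprotease that cleaves proteoglycans, went the other way, from 682 to 689.8 CPM in NC up to 736 to 752 in KD, and from 499.7 to 518 in NC+TGF-β1 down to 464 to 472 in KD+TGF-β1 (interaction -0.23 ± 0.03, adjusted p = 0.00692). Its groups did not overlap in either setting. Among called genes, 1700049E17Rik1 had the highest interaction value, 1.21 ± 0.21 (adjusted p = 0.0158), but its near-identical copy 1700049E17Rik2 moved oppositely, with -0.79 ± 0.17 (adjusted p = 0.0485). Reads of the copies cannot be told apart with certainty, and their summed level was 33.8 to 40.1 CPM in NC and 35.2 to 37.4 in KD, 49.5 to 50.7 in NC+TGF-β1 and 48.8 to 53.6 in KD+TGF-β1, with overlap in both settings.

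The median interaction was above 0 in each of the 4 ATF4-linked lists, which together had 74 tested members. Of these, 17 were called with a higher interaction and 0 with a lower one, or 23.0% against 0.888% of all genes. The median interaction of the 74 was 0.18 against 0.011 over all genes tested. The lists were chosen with earlier results of these data known, and the 17 include the members named above that turned. These shares and medians therefore describe the lists and are no test. At an unadjusted p under 0.05, which 1326 of all 11707 genes had, 43 of the 74 were higher and 1 was lower, and DESeq2 and limma on TPM each called 16 higher and 0 lower. By list, 5 of 23 ATF4 regulators and stress effectors were called (median 0.23), 5 of 16 genes of serine, folate and asparagine synthesis (0.20), 3 of 20 tRNA synthetases (0.10) and 4 of 15 amino acid transporters (0.18). In basal cells silencing lowered 12 and raised 1 of the 74, and with TGF-β1 it lowered 4 and raised 27. The lists differed in this. Of the tRNA synthetases 0 passed in basal cells. Of the genes of serine, folate and asparagine synthesis 2 were raised and 2 lowered with TGF-β1, with a median of 0.009 against 0.002 over all genes tested. The estimate was below 0 in basal cells and above 0 with TGF-β1 in 39 of the 74 members, against 22.1% of all genes tested. All 17 called members had a lower mean level in NC+TGF-β1 than in NC. The share of all genes tested with a lower mean was not computed, so this does not set the members apart from other genes. The count of 17 was 11 without KD replicate 1 or 2 and 9 without KD+TGF-β1 replicate 3, and 12 to 20 without any other library.

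Among members whose effect appeared, Slc7a11, the cystine importer, had the largest value. It was at 49.7, 39.2 and 34.3 CPM in NC, 33.0, 34.7 and 35.1 in KD, 10.2, 11.2 and 10.3 in NC+TGF-β1 and 17.4, 15.2 and 17.4 in KD+TGF-β1. The basal groups overlapped, with NC replicate 1 highest, and the TGF-β1 groups did not. The interaction was 0.92 ± 0.17 (edgeR adjusted p = 0.0187), and it passed in 5 of the 12 fits without 1 library (adjusted p up to 0.0701). Slc3a2, the heavy chain that partners Slc7a11 and Slc7a5, was at 407 to 420.3 CPM in NC, 391 to 399 in KD, 260.3 to 277 in NC+TGF-β1 and 302 to 317 in KD+TGF-β1 (interaction 0.27 ± 0.04, adjusted p = 0.00921), and was called in all 12. Sesn2, a leucine sensor that restrains mTORC1, was at 69.6 to 78.8 CPM in NC and 69.5 to 74.0 in KD, and at 46.1 to 48.7 in NC+TGF-β1 and 63.0 to 64.1 in KD+TGF-β1. Its libraries overlapped in basal cells only, and its interaction of 0.46 ± 0.07 (adjusted p = 0.00567) was called in all 12 fits.

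Atf4 itself was at 565 to 571 CPM in NC, 539.5 to 563 in KD, 353 to 384 in NC+TGF-β1 and 417 to 426 in KD+TGF-β1. The TGF-β1 groups were clearly parted, and the basal groups by a narrow gap. Its interaction was 0.23 ± 0.04 (edgeR adjusted p = 0.0278), called in 4 of the 12 fits without 1 library (adjusted p up to 0.0936). The synthetases Gars, Cars and Nars, which charge tRNAs with glycine, cysteine and asparagine, had interactions of 0.22 ± 0.04, 0.25 ± 0.04 and 0.26 ± 0.05 (adjusted p = 0.0129, 0.0129 and 0.0171). Gars was at 282 to 289 CPM in NC+TGF-β1 and at 324 to 329 in KD+TGF-β1, and its basal libraries overlapped. Without KD+TGF-β1 replicate 3 the adjusted p of Gars and Cars was 0.0539, and Nars was called in 6 of 12 fits. Eif4ebp1, a repressor of translation, was at 99.99 to 112 CPM in NC+TGF-β1 and at 122 to 129 in KD+TGF-β1 (interaction 0.33 ± 0.07, adjusted p = 0.0324, called in 2 of 12 fits).

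In Shmt2 and Psat1, enzymes of serine metabolism, and in Pck2, outside that list, an effect of silencing in basal cells was lost. Most of the list had no such effect to lose, since silencing lowered 4 and raised 0 of its 16 tested members in basal cells. Shmt2, which splits serine into glycine and a folate-bound carbon unit, was at 391, 393 and 406 CPM in NC, 338, 333 and 327 in KD, 181, 185 and 188 in NC+TGF-β1 and 182, 184 and 186 in KD+TGF-β1. All KD libraries lay below NC, and with TGF-β1 the groups covered the same range. The change was -0.25 ± 0.03 in basal cells and -0.00 ± 0.03 with TGF-β1, and the interaction of 0.25 ± 0.04 (edgeR adjusted p = 0.00921) was called in all 12 fits without 1 library. Psat1, of serine synthesis, fell from 693 to 708 CPM to 616 to 636 CPM in basal cells and was at 271 to 286 against 287 to 289 with TGF-β1 (interaction 0.20 ± 0.04, adjusted p = 0.0256, 4 of 12 fits). Pck2, mitochondrial PEP carboxykinase, had an interaction of 0.28 ± 0.06 (adjusted p = 0.0485, 2 of 12). Mthfd2, the mitochondrial folate dehydrogenase, gained an effect instead, at 95.8 to 105 CPM in NC+TGF-β1 and 111 to 118 in KD+TGF-β1 (interaction 0.25 ± 0.05, adjusted p = 0.0401, 2 of 12). Hmga1 and Hmga1b, near-identical copies, were also lower with silencing in basal cells only, and their summed level was 1154 to 1203 CPM in NC, 1028 to 1067 in KD, 586 to 609 in NC+TGF-β1 and 596 to 644 in KD+TGF-β1.

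**Figure D3:**
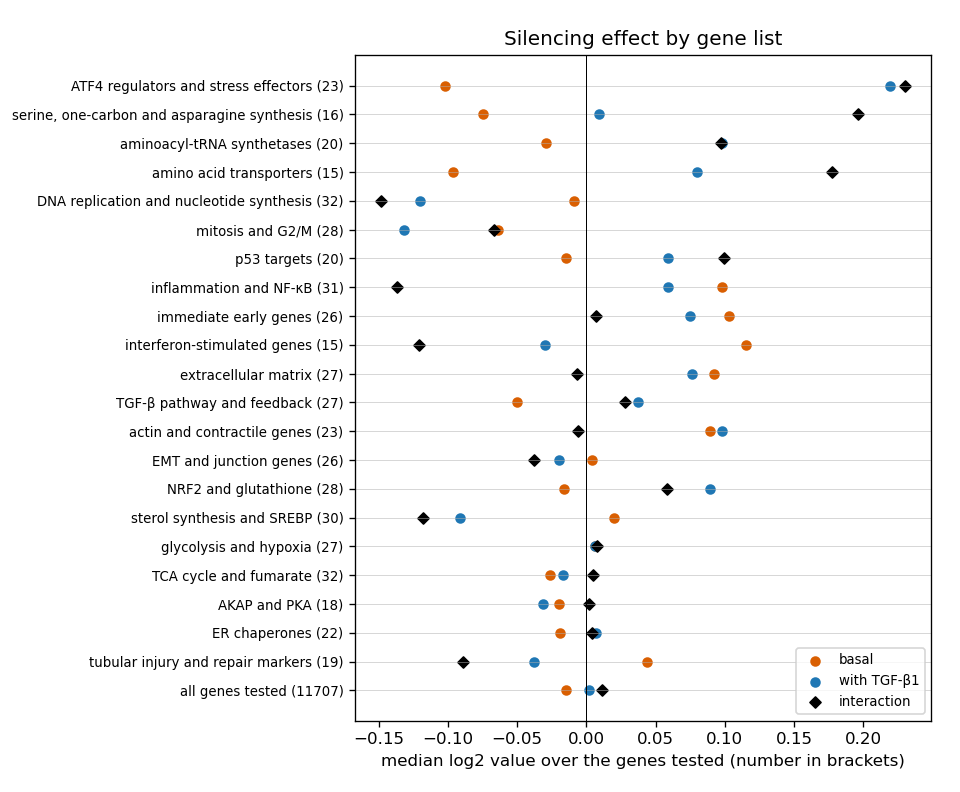
Median log2 value over the tested genes of each of 21 gene lists and over all genes (number tested in brackets): the silencing effect in basal cells, that with TGF-β1 and the interaction. The 4 ATF4-linked lists at the top have basal medians below 0 and TGF-β1 medians above 0, with interaction medians of 0.10 to 0.23, against 0.011 for all genes. The TGF-β1 median of serine, folate and asparagine synthesis is 0.009, against 0.002 for all genes.

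Silencing raised Egr1 and Cxcl1 in basal cells, an effect that was lost with TGF-β1, and raised Tnfaip3 in both settings, by less with the cytokine. Egr1, an immediate early zinc finger factor, was at 25.1, 22.1 and 25.8 CPM in NC and at 44.1, 44.0 and 42.0 in KD, but at 10.7, 11.9 and 10.6 in NC+TGF-β1 and 10.8, 11.4 and 10.9 in KD+TGF-β1. The basal groups were far apart and the TGF-β1 groups overlapped. The change was 0.83 ± 0.06 in basal cells and -0.00 ± 0.08 with TGF-β1, an interaction of -0.84 ± 0.10 (edgeR adjusted p = 0.0013) that was called in all 12 fits without 1 library. Egr1 was the only called member among 26 tested immediate early genes (3.85%, against 0.888% of all genes tested), whose median interaction was 0.01. Silencing raised 7 of the 26 and lowered 1 in basal cells, against 1.44% and 2.22% of all genes tested. With TGF-β1 it raised 5 and lowered 1, against 5.42% and 6.02%.

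Cxcl1, a neutrophil chemokine, was at 55.6, 57.5 and 53.2 CPM in NC, 79.1, 78.6 and 79.6 in KD, 6.73, 9.05 and 8.62 in NC+TGF-β1 and 7.31, 7.54 and 7.53 in KD+TGF-β1. The basal groups were far apart, and with TGF-β1 the KD+TGF-β1 libraries lay inside the range of the controls at a much lower level. Its interaction was -0.64 ± 0.11 (edgeR adjusted p = 0.0151), and the adjusted p was 0.06 without NC+TGF-β1 replicate 3, 0.0534 without KD+TGF-β1 replicate 1 and 0.0539 without KD+TGF-β1 replicate 3. Tnfaip3, an inhibitor of NF-κB signalling, was at 104 to 108 CPM in NC and 137 to 142 in KD, and at 138 to 147 in NC+TGF-β1 and 154 to 165 in KD+TGF-β1 (interaction -0.24 ± 0.05, adjusted p = 0.0485, 3 of 12 fits). Among 31 tested genes of inflammation and NF-κB signalling 3 were called, all lower (Lcn2, Cxcl1 and Tnfaip3), or 9.68%. Over all genes tested 0.419% were called lower. The median interaction of the list was -0.14. In basal cells silencing raised 7 of the 31 and lowered 0, against 1.44% and 2.22% of all genes tested. With TGF-β1 it raised 5 and lowered 4, against 5.42% and 6.02%. The chemokine Ccl2 had a similar estimate, -0.97 ± 0.31, at 1.27 to 6.35 CPM, which did not pass (adjusted p = 0.219).

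Other increases of basal cells that were lost with TGF-β1 included those of Col4a3, Txnip and Ptpn13. Col4a3, a basement membrane collagen chain, was at 67.9, 57.4 and 57.3 CPM in NC, 84.8, 88.1 and 83.1 in KD, 138 to 143 in NC+TGF-β1 and 141 to 146 in KD+TGF-β1, where the groups overlapped. Its interaction was -0.45 ± 0.07 (edgeR adjusted p = 0.012), with an adjusted p of 0.0518 without KD replicate 2. Txnip, which binds thioredoxin and limits glucose uptake, was at 24.2 to 27.3 CPM in NC and 37.2 to 38.6 in KD, and at 33.3 to 34.5 in NC+TGF-β1 and 35.9 to 37.7 in KD+TGF-β1 (interaction -0.44 ± 0.07, adjusted p = 0.00877, all 12 fits). The phosphatase gene Ptpn13 had an interaction of -0.25 ± 0.04 (adjusted p = 0.00921, all 12 fits).

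The remaining named genes of these classes held weaker calls. Gadd45b, a stress-induced growth arrest gene, and Rassf1, a scaffold of the Hippo pathway, shrank, with interactions of -0.20 ± 0.04 and -0.29 ± 0.05 (edgeR adjusted p = 0.0274 and 0.0187), called in 4 and 7 of the 12 fits. The linker histone gene H1f2 and Tanc2, a synaptic scaffold, were higher with silencing in basal cells only, at interactions of -0.75 ± 0.16 and -0.67 ± 0.14 (adjusted p = 0.0489 and 0.0354), and were called in 4 and 2 of the 12 fits. Both lay at no more than 13.4 CPM in any library, and their TGF-β1 groups overlapped.

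**Figure D4:**
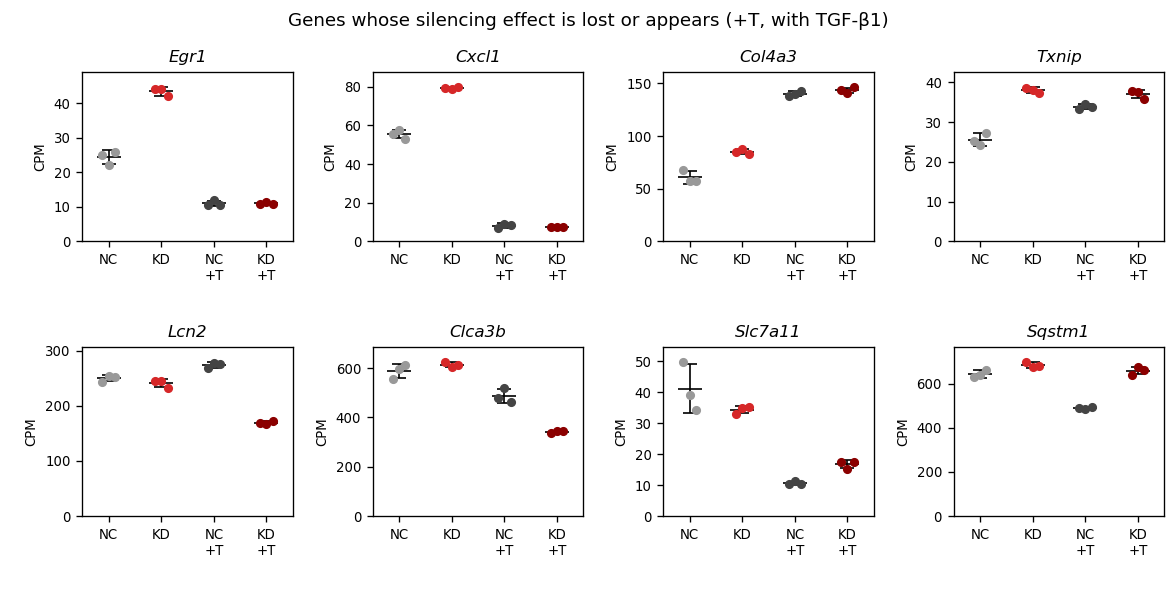
Level in CPM (vertical axes, from 0) of genes whose silencing effect was lost with TGF-β1 (Egr1, Cxcl1, Col4a3, Txnip) or appeared (Lcn2, Clca3b, Slc7a11, Sqstm1), in the same 4 groups as above. Points are single libraries, and bars give the mean and the SD of 3. KD exceeds NC in the first 4 panels while the TGF-β1 groups overlap or, for Txnip, lie closer together, and in the lower panels the TGF-β1 groups are parted where the basal groups overlap or lie close.

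The genes in which an effect appeared in the downward direction were led by Lcn2, which encodes lipocalin 2, an iron-siderophore binding protein and marker of tubular injury. It was at 243.9, 253.9 and 251.4 CPM in NC, 245, 246 and 233 in KD, 268, 278 and 276 in NC+TGF-β1 and 169, 167 and 172 in KD+TGF-β1. The first 3 groups lay close together and the KD+TGF-β1 libraries lay far below all of them. Silencing changed it by -0.05 ± 0.03 in basal cells and -0.70 ± 0.03 with TGF-β1, and the interaction of -0.65 ± 0.04 had, with that of Fh1, the smallest adjusted p (edgeR, 8.18e-06). Clca3b, of the calcium-activated chloride channel regulator family, was at 558 to 613 CPM in NC, 603 to 625 in KD, 464 to 521 in NC+TGF-β1 and 338 to 346 in KD+TGF-β1 (interaction -0.57 ± 0.06, adjusted p = 0.000798). Spp1, osteopontin, was at 1162 to 1264 CPM in NC and 1179 to 1208 in KD, and at 363 to 384 in NC+TGF-β1 and 288 to 322 in KD+TGF-β1 (interaction -0.27 ± 0.06, adjusted p = 0.0499). Lcn2 and Clca3b were called in all 12 fits without 1 library and Spp1 in 3. Lcn2 and Spp1 were the called members among 19 tested injury and repair markers (10.5%, against 0.888% of all genes tested), whose median interaction was -0.09.

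Other genes that silencing lowered only in the test with TGF-β1 were called in all 12 fits. Srd5a1, a steroid 5-alpha reductase, was at 225 to 229.9 CPM in NC and 227 to 232 in KD, and at 58.2 to 63.1 in NC+TGF-β1 and 46.2 to 47.1 in KD+TGF-β1 (interaction -0.40 ± 0.05, edgeR adjusted p = 0.0013). Scin, an actin-severing protein of the gelsolin family, was at 193 to 197 CPM in NC and 184 to 191 in KD, and at 67.6 to 68.4 in NC+TGF-β1 and 51.0 to 52.6 in KD+TGF-β1 (interaction -0.35 ± 0.04, adjusted p = 0.0013). Hs3st1, a heparan sulfate sulfotransferase, had an interaction of -0.45 ± 0.06 (adjusted p = 0.00275) and Clmn, an actin-binding membrane protein, of -0.35 ± 0.05 (adjusted p = 0.00403). Cx3cl1, a membrane-bound chemokine, was at 22.5 to 23.7 CPM in NC, 20.3 to 22.1 in KD, 23.3 to 23.8 in NC+TGF-β1 and 14.8 to 16.4 in KD+TGF-β1 (interaction -0.47 ± 0.08, adjusted p = 0.012). In each of these 5 genes the TGF-β1 groups did not overlap. Cd209c, a lectin gene at no more than 8.16 CPM, had an interaction of -0.69 ± 0.15 (adjusted p = 0.049, 2 of 12 fits).

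Upward, an effect appeared in Sqstm1, the autophagy receptor p62 and a known target of NRF2. It was at 629, 639.7 and 662 CPM in NC, 698, 673 and 680.3 in KD, 490.4, 487 and 493 in NC+TGF-β1 and 640.4, 674 and 661 in KD+TGF-β1. With TGF-β1 the silenced cells were at the level of basal cells while the controls were lower. The interaction was 0.34 ± 0.04 (edgeR adjusted p = 0.0013), called in all 12 fits. Denr, a factor of translation reinitiation, and Phf10, a chromatin remodelling subunit, were also called in all 12, with interactions of 0.25 ± 0.04 and 0.32 ± 0.05 (adjusted p = 0.00921 and 0.00772). Unlike the 17 called ATF4-linked genes, Denr was higher with TGF-β1 in the controls, at 217 to 222 CPM against 162 to 171 in NC, and reached 264 to 269.8 CPM in KD+TGF-β1. Lims2, a focal adhesion adaptor, was at 11.6 to 12.5 CPM in NC and 11.3 to 12.5 in KD, and at 1.55 to 1.77 in NC+TGF-β1 and 2.61 to 3.51 in KD+TGF-β1 (interaction 0.90 ± 0.17, adjusted p = 0.0239, 5 of 12 fits). The purine receptor gene P2rx4 and the membrane protein gene Tmem161b had interactions of 0.54 ± 0.11 and 0.44 ± 0.09 (adjusted p = 0.0329 and 0.0399), called in 3 and 1 of the 12 fits.

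Besides Fh1, 9 genes changed in the same direction in both settings and more with TGF-β1, of which 7 are named here. Mbd6, a methyl-CpG-binding domain protein, was at 59.6, 55.8 and 59.7 CPM in NC, 88.8, 87.0 and 90.2 in KD, 47.3, 47.4 and 49.5 in NC+TGF-β1 and 89.9, 106 and 102 in KD+TGF-β1. The effect was 0.60 ± 0.05 in basal cells and 1.05 ± 0.05 with TGF-β1, an interaction of 0.44 ± 0.08 (edgeR adjusted p = 0.0151; 0.0518 without KD replicate 2 and 0.0557 without KD+TGF-β1 replicate 3). Clcn5, an endosomal chloride and proton exchanger of the proximal tubule, rose from 169 to 173 CPM to 194 to 201 in basal cells and from 208 to 214 to 288 to 291 with TGF-β1 (interaction 0.25 ± 0.04, adjusted p = 0.00692, all 12 fits). Gpd1l, related to glycerol-3-phosphate dehydrogenase, fell from 73.3 to 75.0 CPM to 54.7 to 56.5 in basal cells and from 64.1 to 67.2 to 37.7 to 39.6 with TGF-β1 (interaction -0.34 ± 0.05, adjusted p = 0.00692, all 12 fits). Fbxw11, a substrate receptor of a ubiquitin ligase, fell by 0.43 ± 0.03 in basal cells and 0.67 ± 0.03 with TGF-β1 on the log2 scale (interaction -0.25 ± 0.04, adjusted p = 0.0147; 0.0503 without KD replicate 1 and 0.0518 without KD replicate 2). Libraries of NC and KD did not overlap in either setting for any of these 4 genes. Abcc4, an efflux pump, Ptpn22, a tyrosine phosphatase, and Vipas39, of endosomal sorting, had interactions of 0.19 ± 0.03, 0.43 ± 0.09 and -0.34 ± 0.07 (adjusted p = 0.0184, 0.0324 and 0.0324), called in 7, 3 and 4 of the 12 fits.

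With TGF-β1, silencing lowered 12 of 32 replication, 15 of 28 mitosis and 12 of 30 sterol genes, against 6.02% of all genes tested, and few differences between the settings passed. Over all genes tested, silencing lowered 2.22% in basal cells, and 0.888% were called in the interaction. An unadjusted interaction p under 0.05 was found for 1326 of all 11707 genes, both directions together, and their split by direction was not computed. Of 32 tested genes of DNA replication and nucleotide synthesis, silencing lowered 1 in basal cells and 12 with TGF-β1. The median interaction was -0.15, 6 of the 32 estimates were above 0, 14 genes were lower and 0 higher at an unadjusted p under 0.05, and 1 was called (3 by DESeq2): Mcm2, a subunit of the replicative helicase, at 199.6 to 205 CPM in NC, 199 to 206 in KD, 141 to 148 in NC+TGF-β1 and 116 to 129 in KD+TGF-β1 (interaction -0.24 ± 0.05, edgeR adjusted p = 0.0485, 3 of 12 fits). Of 28 tested genes of mitosis, 1 was lower in basal cells and 15 with TGF-β1, and 0 were called in the interaction by edgeR, DESeq2 or limma, with 4 lower and 0 higher at an unadjusted p under 0.05. Of 30 tested genes of sterol synthesis and its control, 1 was lower and 1 higher in basal cells, and 12 were lower and 0 higher with TGF-β1. In the interaction 18 were lower and 0 higher at an unadjusted p under 0.05 (median -0.12), and 1 was called (3 by DESeq2), Dhcr7, which makes the last step to cholesterol (55.1 to 59.1 CPM in NC, 61.1 to 63.4 in KD, 52.3 to 55.6 in NC+TGF-β1, 46.9 to 47.9 in KD+TGF-β1; interaction -0.31 ± 0.06, adjusted p = 0.0175, 7 of 12 fits).

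In the interaction the list of glycolysis and hypoxia held 1 call higher and 1 lower, and the list of actin and contractile genes 1 lower. Vegfa, the endothelial growth factor, was at 165 to 175 CPM in NC+TGF-β1 and at 186.4, 191.7 and 200 in KD+TGF-β1, and its basal libraries were at 122 to 127 in NC and 115 to 121 in KD. Its interaction was 0.26 ± 0.05 (edgeR adjusted p = 0.028). P4ha1, the catalytic subunit of collagen prolyl hydroxylase, had an interaction of -0.30 ± 0.06 (adjusted p = 0.028) and Myh10, non-muscle myosin IIB, of -0.21 ± 0.05 (adjusted p = 0.0485). These 3 were called in 3, 4 and 2 of the 12 fits. Hilpda, a hypoxia-inducible lipid droplet gene, had an interaction of 0.30 ± 0.07 (adjusted p = 0.0489, 2 of 12 fits). Vegfa and P4ha1 were the called members among 27 tested genes of glycolysis and hypoxia (median interaction 0.01), and Myh10 that among 23 actin and contractile genes (-0.01). Among 28 genes of the NRF2 and glutathione list 1 was called higher, Abcc4, and 1 lower, Txnip, and the median was 0.06. The shares called were 7.41% for glycolysis and hypoxia, 4.35% for actin and contractile genes and 7.14% for NRF2 and glutathione. Over all genes tested 0.888% were called.

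The lists of the TGF-β pathway and of epithelial to mesenchymal change and junctions held no call. Hmga2, called above, is not a member of either list. In 27 tested genes of the TGF-β pathway and in 26 of epithelial to mesenchymal change and junctions, 0 were called by edgeR, DESeq2 or limma, and the median interactions were 0.03 and -0.04. At an unadjusted p under 0.05, 1 of the first list was higher and 1 lower, and 1 of the second was higher and 7 lower. Fn1, fibronectin, was at 1993 to 2124 CPM in NC, 2144 to 2211 in KD, 8086 to 8320 in NC+TGF-β1 and 9077 to 9226 in KD+TGF-β1, with an interaction of 0.07 ± 0.04 (adjusted p = 0.545). Ccn2, a matricellular TGF-β1 target, was at 581 to 614 CPM in NC, 652 to 719 in KD, 2182 to 2263 in NC+TGF-β1 and 2595 to 2656 in KD+TGF-β1, with an interaction of 0.03 ± 0.05 (adjusted p = 0.843). In both genes the silenced libraries lay above the controls without overlap in each setting. Cdh1, E-cadherin, and Smad7, an inhibitor of the pathway, had interactions of -0.06 ± 0.03 and -0.03 ± 0.06 (adjusted p = 0.523 and 0.888). Col1a1, Acta2 and Vim lay at no more than 7.24 CPM and did not pass, and Il6 and Nqo1 were not among the genes tested. Hmox1, a target of NRF2, was at 35.4 to 40.1 CPM in NC, 37.9 to 38.6 in KD, 28.8 to 31.5 in NC+TGF-β1 and 38.02 to 43.8 in KD+TGF-β1, an interaction of 0.39 ± 0.09 that did not pass (adjusted p = 0.0718). In the interaction 0 genes were called among 32 tested genes of the tricarboxylic acid cycle, 18 of AKAPs and protein kinase A, 22 endoplasmic reticulum chaperones, 20 p53 targets and 15 interferon-stimulated genes, with median interactions of 0.01, 0.00, 0.00, 0.10 and -0.12. Neither edgeR nor DESeq2 nor limma made a call there. At an unadjusted p under 0.05, which 1326 of all 11707 genes had, the lists held 3, 0, 7, 6 and 4 genes in that order. A p that misses the threshold does not show that the effects were equal.

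**Figure D5:**
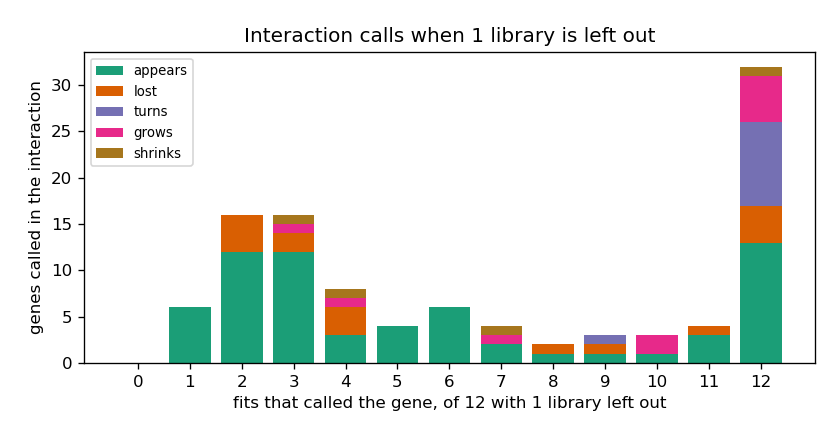
Number of the 104 called genes (vertical axis) by how many of the 12 fits with 1 library left out called them (horizontal axis), coloured by class. At 12 of 12 stand 32 genes, among them 9 of the 10 that turned, and 50 genes were called in fewer than 6 fits.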

How the data were processed

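Total RNA of the 12 mTEC samples was sequenced as mRNA libraries, per the labels. Tools listed in the submitters' processing notes are RSEM 1.3.1, DESeq2 1.34.0, HISAT2 and Bowtie2, with no role or order, and the build listed is hg38, which is human. The authors deposited a transcript table for each setting. The deposited read counts are estimated counts per transcript with fractional values, per the file headers and the values. Deposited TPM values stand beside them, per the file headers. The other 24 columns of per-sample values were not used here. Both were summed per Entrez gene, the estimated counts were rounded, and only the 15802 genes present in each table were kept. The 12 libraries had totals of 17651213 to 18462872.

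The main test was that of edgeR 4.0.16 (R 4.3.3), with TMM scaling, filterByExpr with its defaults, 1 coefficient per group, quasi-likelihood F-tests and Benjamini-Hochberg adjustment over 11707 genes, with calls at an adjusted p under 0.05. Each log2 value has its standard error from that fit, and CPM values are scaled by library size and TMM. Entrez IDs were named from the RefSeq table of GRCm38.p6. The members, classes and gene lists were chosen with earlier results of these data known. Named genes are Fh1, Akap12, up to 5 called genes with the largest interaction per class and direction, with a group mean of at least 5 CPM, up to 4 called members per list, and fixed markers, and a few genes this rule would name are left out of the text. Atf4, Mthfd2, Xpot, Sqstm1, Denr, Phf10, Eif4ebp1, Hilpda, Srd5a1, Scin, Hs3st1, Clmn, Ptpn13, Gadd45b and the 1700049E17Rik copies were added after their values were seen. Alternatives were DESeq2's size factors, DESeq2 1.42.0, limma 3.58.1 on log2 (TPM + 1) and log2 (TPM + 0.1), other filters, a replicate block, and each library left out. Leaving out NC replicate 1 with KD+TGF-β1 replicate 1, and summing near-identical copies, were chosen after seeing the data.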

Additional observations from a re-analysis of the deposited data

Results flagged for a closer look

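For the 64 named genes called in the interaction, the effect of silencing differed between the basal and the TGF-β1 libraries by the test of the difference itself (edgeR's quasi-likelihood test, adjusted p under 0.05). Where the effect appeared in the downward direction, the interaction log2 values were Lcn2 -0.65, Clca3b -0.57, Srd5a1 -0.40, Scin -0.35, Hs3st1 -0.45, Clmn -0.35, Cx3cl1 -0.47, Dhcr7 -0.31, P4ha1 -0.30, 1700049E17Rik2 -0.79, Myh10 -0.21, Mcm2 -0.24, Cd209c -0.69 and Spp1 -0.27. Where the effect was a decrease that grew, the interaction log2 values were Fh1 -0.98, Gpd1l -0.34, Fbxw11 -0.25 and Vipas39 -0.34. Where the effect turned to higher, the interaction log2 values were Chac1 0.57, Hmga2 0.50, Nupr1 0.59, Slc7a5 0.36, Slc6a9 0.53, Xpot 0.25, Trib3 0.49, Asns 0.34 and 1700049E17Rik1 1.21. Where the effect appeared in the upward direction, the interaction log2 values were Sqstm1 0.34, Sesn2 0.46, Phf10 0.32, Slc3a2 0.27, Denr 0.25, Gars 0.22, Cars 0.25, Nars 0.26, Slc7a11 0.92, Lims2 0.90, Atf4 0.23, Vegfa 0.26, Eif4ebp1 0.33, P2rx4 0.54, Tmem161b 0.44, Mthfd2 0.25 and Hilpda 0.30. Where the effect was an increase in basal cells and was lost, the interaction log2 values were Egr1 -0.84, Txnip -0.44, Ptpn13 -0.25, Col4a3 -0.45, Cxcl1 -0.64, Tanc2 -0.67 and H1f2 -0.75. Where the effect was an increase that shrank, the interaction log2 values were Rassf1 -0.29, Gadd45b -0.20 and Tnfaip3 -0.24. Where the effect was an increase that grew, the interaction log2 values were Clcn5 0.25, Mbd6 0.44, Abcc4 0.19 and Ptpn22 0.43. Where the effect turned to lower, the interaction log2 value was Adamts1 -0.23. Where the effect was a decrease in basal cells and was lost, the interaction log2 values were Shmt2 0.25, Psat1 0.20, Hmga1 0.22, Pck2 0.28 and Hmga1b 0.23.

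Outside the genes tested, KD+TGF-β1 replicate 1 held 328 counts of 9 pluripotency markers (among them Nanog, Zfp42 and Dppa5a), which were at 0 in the other 11 libraries, controls included. Their part in the interaction calls was not tested as such, and the interaction held 59 calls without that library.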

How the results depend on the processing

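The interaction held 104 calls as reported and 80 to 123 with DESeq2's size factors, DESeq2, either TPM fit or another low-count filter. It held 78 calls without both NC replicate 1 and KD+TGF-β1 replicate 1. DESeq2 called 81 of the 104 genes. An absolute interaction of at least 0.5 left 18. DESeq2's size factors moved the calls higher from 55 to 36. With limma on log2 (TPM + 1) and on log2 (TPM + 0.1), 5 genes turned in each, against 10. Silencing in basal cells gave 151 calls from the 6 libraries of that table, against 429, and DESeq2 gave 871 for silencing with TGF-β1, against 1340; the cause was not tested. None of the 104 called genes reversed its sign under any alternative run, and named genes that were not called were not covered by this check.

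Same-numbered libraries did not deviate together (correlations of -0.105 to 0.0728, 0 of 18 over 0.1). No pairing by number was seen, but with 3 libraries per group this check cannot exclude it. With replicate number as a block the interaction had 54 calls, 30 higher and 24 lower, of which 53 were among the 104. Its genes that appeared were then 32 against 64, and those lost 7 against 16.

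Leaving out each library in turn gave 38 to 147 calls, 16 to 61 of them higher and 19 to 86 lower. Silencing had 212 to 641 calls in basal cells and 787 to 1728 with TGF-β1. Genes that appeared numbered 19 to 91, genes lost 5 to 26, genes that turned 4 to 11, and called members of the ATF4-linked lists 9 to 20. The interaction stayed between -1.02 and -0.94 for Fh1 and between -0.09 and -0.03 for Akap12. With 3 libraries per group and a median value of 1.238-fold, 50 of the 104 genes were called in fewer than 6 of these 12 fits.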
